A study of Mus musculus with 2 samples.

Results

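The 8 genes Spsb1, Gpr63, Ghrhr, Cpe, Foxq1, Ido2, Butr1 and Wdr54 were described in the inner cell mass (ICM) of the mouse blastocyst. They were chosen by their read counts, as genes with many reads in the ICM library and none in the whole-blastocyst library, and they are 8 of the 19559 genes in the deposited table. Because the reads chose them, their levels and ratios below are a description and no test was made. Both libraries came from embryos of B6CBAF1 females crossed to CD-1 males, at the blastocyst stage E3.75. One library was made from whole blastocysts and the other from ICMs that had been freed of their outer cells by immunosurgery, in which antibody and complement lyse the outer layer. There was 1 library of each kind, which leaves no spread between samples to judge a difference by, and the sources used here do not state the number of embryos per library.

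The blastocyst consists of the trophectoderm, an epithelium that faces outward, and of the ICM, from which epiblast and primitive endoderm form. A whole blastocyst contains its own ICM, so a transcript of the ICM is also part of the whole-blastocyst RNA, diluted by that of the trophectoderm. The 8 genes belong to unrelated families. Ghrhr encodes the receptor for growth hormone-releasing hormone, a class B receptor that couples to Gs and is known from the somatotroph cells of the pituitary, and Gpr63 an orphan receptor of the rhodopsin class known mainly from the brain. Cpe encodes carboxypeptidase E, which trims basic residues from the ends of peptide hormone precursors, and Ido2 a relative of the tryptophan-degrading enzyme IDO1. Spsb1 encodes a SOCS box protein that hands substrates such as inducible nitric oxide synthase to a cullin 5 ubiquitin ligase. Foxq1 encodes a forkhead transcription factor known from hair and epithelia, Butr1 (current symbol Btnl10) a member of the butyrophilin family of the immunoglobulin superfamily, and Wdr54 a protein with WD repeats.

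Listed genes took 9271198 reads of the whole-blastocyst library and 4125479 of the ICM library. The labels could be checked on lineage markers. Of 6 epiblast markers 5 were higher in the ICM by 2-fold or more and none lower, of 6 primitive endoderm markers 5 were higher and none lower, and of 6 trophectoderm markers all were at least 2-fold lower. Reads of trophectoderm markers were still found in the ICM library, though none of Elf5. Their summed RPKM (reads per kilobase of length, scaled to the library total) over these 6 markers was 46.4, compared with 1615 for whole blastocysts. Whether these ICM reads came from remaining trophectoderm cells was not tested. In RNA of whole tissues, fewer cells of a type and less RNA per cell cannot be told apart. Since the cDNA was amplified and carried no molecular identifiers, reads are not independent molecules, and the 95% intervals below express counting error only.

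Promoter sequence was at hand for 4 of the 8 genes, Spsb1, Gpr63, Butr1 and Wdr54, in 7 windows of 250 bases before an annotated start (RefSeq, GRCm38.p6). The windows below are shown because they held the motifs that were matched or, for Wdr54, nearly as many CG dinucleotides as Spsb1. Capitals mark the letters GGGCGG (the GC box), AGATAA (the core bound by GATA factors) and ACAATG (a SOX motif), on either strand. Spsb1 lies on the minus strand at chr4:149955007-149955256, Wdr54 on the minus strand at chr6:83156380-83156629, and the upstream one of 2 Butr1 windows on the plus strand at chr11:58917658-58917907.
Spsb1: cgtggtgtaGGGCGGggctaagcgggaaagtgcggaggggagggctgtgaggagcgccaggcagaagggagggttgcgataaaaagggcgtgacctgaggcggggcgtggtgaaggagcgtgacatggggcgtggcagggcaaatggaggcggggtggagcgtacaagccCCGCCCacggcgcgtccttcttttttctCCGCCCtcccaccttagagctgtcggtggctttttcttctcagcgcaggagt
Wdr54: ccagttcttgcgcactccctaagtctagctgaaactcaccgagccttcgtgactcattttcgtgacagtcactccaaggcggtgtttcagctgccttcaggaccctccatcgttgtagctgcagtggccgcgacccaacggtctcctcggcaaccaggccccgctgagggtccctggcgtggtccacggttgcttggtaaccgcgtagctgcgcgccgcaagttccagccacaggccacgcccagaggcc
Butr1: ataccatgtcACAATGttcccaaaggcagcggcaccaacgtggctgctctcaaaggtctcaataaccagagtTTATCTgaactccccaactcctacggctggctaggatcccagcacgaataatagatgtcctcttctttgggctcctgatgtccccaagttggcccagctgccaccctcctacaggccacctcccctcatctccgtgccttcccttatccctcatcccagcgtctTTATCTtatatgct
The promoters of Spsb1 and Wdr54 were rich in CG dinucleotides, with 20 and 19, more than 82.1% and 80.3% of the 32851 windows of the table, whose median was 6. Butr1 was at that median, with 6 in the window shown and 4 in the other, and the 3 windows of Gpr63 held 4, 10 and 2. Spsb1 had 3 GC boxes, a motif found in 32.7% of all windows. The Butr1 window shown had 2 GATA cores, at -178 and -14 from the start, and 1 SOX motif at -240, found in 9.99% and 10.7% of all windows. The core nearest the start also lies in the other Butr1 window, at -163 from its start. Neither these motifs nor the letters TATAAA (the TATA box), CCAAT (the CCAAT box), ATGCAAA (the octamer core) or CATTCC (the TEAD motif), each searched on both strands, occurred in the windows of Gpr63 and Wdr54, and no matches overlapped. A match describes letters, not binding, and no motif was found in the windows of more than 1 of the 4 genes.

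Each of the 8 genes had 0 reads in the whole blastocyst. Spsb1 had 611 reads in the ICM, Gpr63 had 500, Ghrhr 491 and Cpe 479. Foxq1 had 388 ICM reads, Ido2 had 377, Butr1 186 and Wdr54 163. All 8 thus lay between the 64.7th and the 86.3rd percentile of read counts among the 11608 genes read in the ICM. The ICM range of 163 to 611 reads held 2509 genes, whose median count in the whole blastocyst was 538 reads. Of these 2509 genes, 32 (1.28%) had no whole-blastocyst read, the 8 among them, and 37 more had 1 to 10 reads. All 8 were chosen for that 0, so nothing is read from the share.

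**Figure D1:**
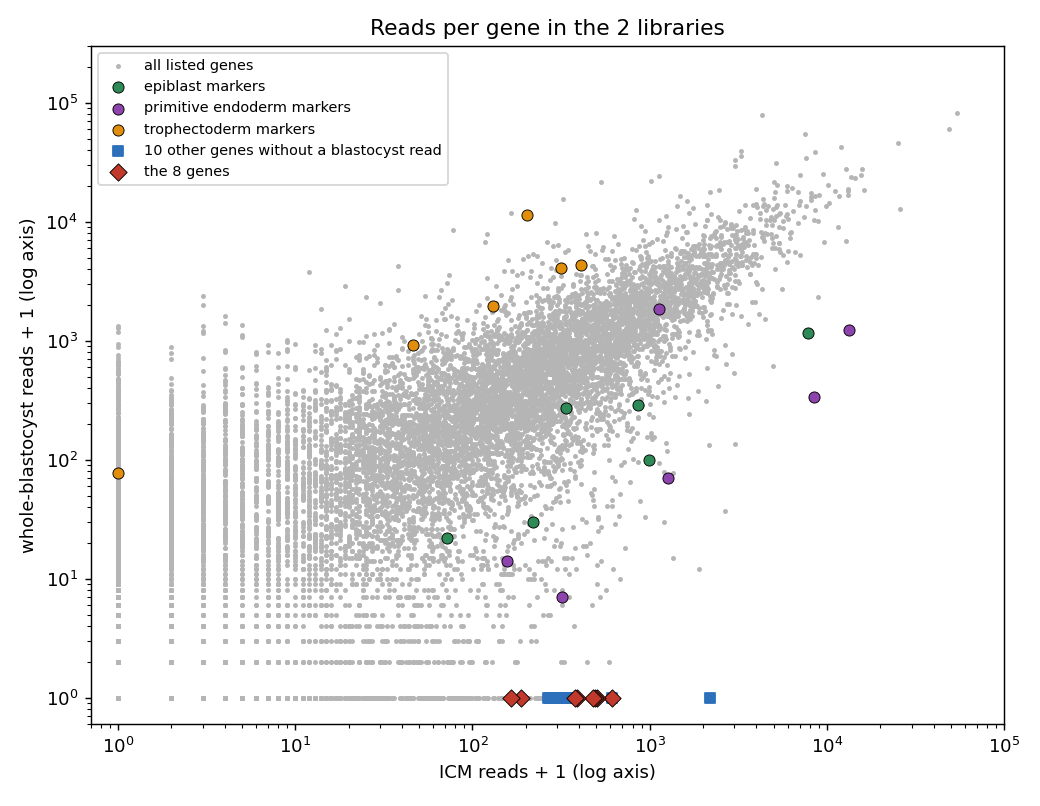
Reads of each listed gene in the ICM library (x, log axis, reads + 1) and in the whole-blastocyst library (y, log axis, reads + 1), with 1 point per gene. The 8 genes (diamonds) lie on the bottom line of 0 whole-blastocyst reads at 163 to 611 ICM reads, below the markers of epiblast and primitive endoderm, all of which had reads in both libraries.

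In the whole table, 125 of the 19559 genes (0.639%) had 50 or more ICM reads and no whole-blastocyst read. The 8 ranked from 2nd (Spsb1) to 33rd (Wdr54) of these 125 by reads, and the other 25 genes down to 163 reads were not among the 8. Flrt3, an adhesion protein gene with 2189 reads, led the 125. Just inside the range stood Wdr54 with 163 reads, and just outside it 4932438H23Rik with 150 and Fam13a and Pld5 with 143 each. In the opposite direction 329 genes had 50 or more whole-blastocyst reads and none in the ICM, 106 of them with 163 reads or more. Genes read in 1 library alone became rare with depth in both directions. Of genes with 100 to 199 ICM reads 1.76% lacked a whole-blastocyst read, compared with 6.01% of genes with as many whole-blastocyst reads that lacked an ICM read. At 400 to 799 reads, where Spsb1, Gpr63, Ghrhr and Cpe lie, the shares were 0.459% and 1.68%. The whole-blastocyst library had 9271198 listed reads and the ICM library 4125479, so equal read counts do not stand for equal levels. Nothing is read from the contrast of the directions.

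**Figure D2:**
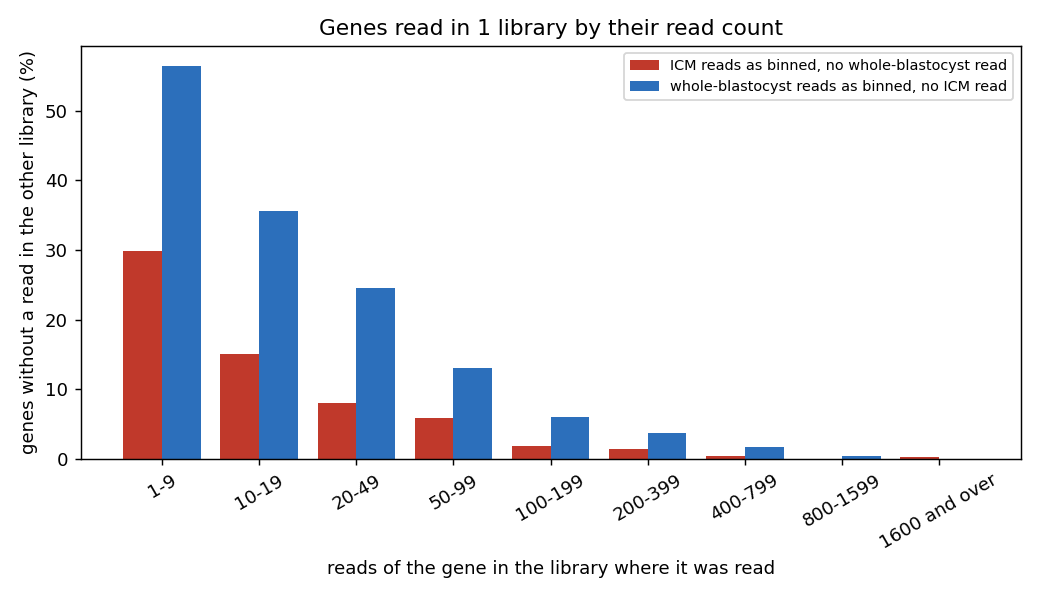
Share of genes (y, percent) without a read in the other library, by the number of reads in the library where they were read (x, bins). Bars stand for genes binned by ICM reads or by whole-blastocyst reads, and the shares of 1.76% and 6.01% at 100 to 199 reads fall to 0.459% and 1.68% at 400 to 799. The whole-blastocyst library had more listed reads, so equal read counts do not stand for equal levels.

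The deposited RPKM put the 8 genes in another order than the reads. Ghrhr was highest with an ICM RPKM of 35.9 (32.8 to 39.2), followed by Butr1 with 25.4 (21.9 to 29.3), Wdr54 with 23.1 (19.7 to 26.9) and Cpe with 18.9 (17.2 to 20.7). Lower levels were those of Spsb1 at 7.83 (7.22 to 8.48), Gpr63 at 6.27 (5.73 to 6.84), Ido2 at 4.83 (4.35 to 5.34) and Foxq1 at 3.65 (3.29 to 4.03). In this order the intervals of Butr1 and Wdr54 overlapped, as did those of Wdr54 and Cpe, whereas the other neighbours differed beyond counting error. Ghrhr lay at the 95.6th percentile of RPKM among genes read in the ICM, and Foxq1 at the 64.5th.

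The difference between both orders comes from the lengths behind RPKM. The table gives no lengths, but the number of reads per unit of RPKM is proportional to one. Among 4626 genes with 1 transcript of more than 1 exon in GENCODE M21, that length was within 5% of the last exon in 74.5%, of the longest exon in 65.0%, of the first exon in 1.28% and of the whole transcript in 1.38%. In 1453 of them (31.4%) it was the last exon less 1 base. For most genes the deposited RPKM was thus scaled to the last exon. The sources used here do not state whether the reads were counted over the last exon alone. With this scale the lengths behind RPKM were 2057 bases for Spsb1, 2103 for Gpr63, 361 for Ghrhr, 669 for Cpe, 2804 for Foxq1, 2060 for Ido2, 193 for Butr1 and 186 for Wdr54.

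These lengths can be set against the annotation gene by gene. For Ghrhr the last of 13 exons has 362 bases, 1 more than the length used, so the high RPKM of this receptor gene is 491 reads scaled to the last exon of a 1550-base transcript. The last exons of Gpr63 (2104 bases), Spsb1 (2059) and Cpe (680) likewise differed from the length used by 1, 2 and 11 bases. For Butr1 a last exon of 194 bases exists in 1 of 3 transcripts and one of 199 bases in another, while the longest transcript ends in an exon of 3212 bases. Foxq1 has a single exon, of 4843 bases in GENCODE, and its RefSeq gene spans 2807, close to the 2804 used. The 1499-base last exon of Ido2 and the 3537-base last exon of Wdr54 did not match the 2060 and 186 bases used. With the same reads over the last exon of the longest GENCODE transcript, a setting chosen after seeing the data, the level of Wdr54 would be 1.22, that of Butr1 1.53 and that of Foxq1 2.11 in place of 23.1, 25.4 and 3.65, and that of Ido2 would be 6.63. Ghrhr and Cpe, at 35.8 and 18.6, would keep theirs, so a ranking of Butr1 and Wdr54 by level depends on the annotation.

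**Figure D3:**
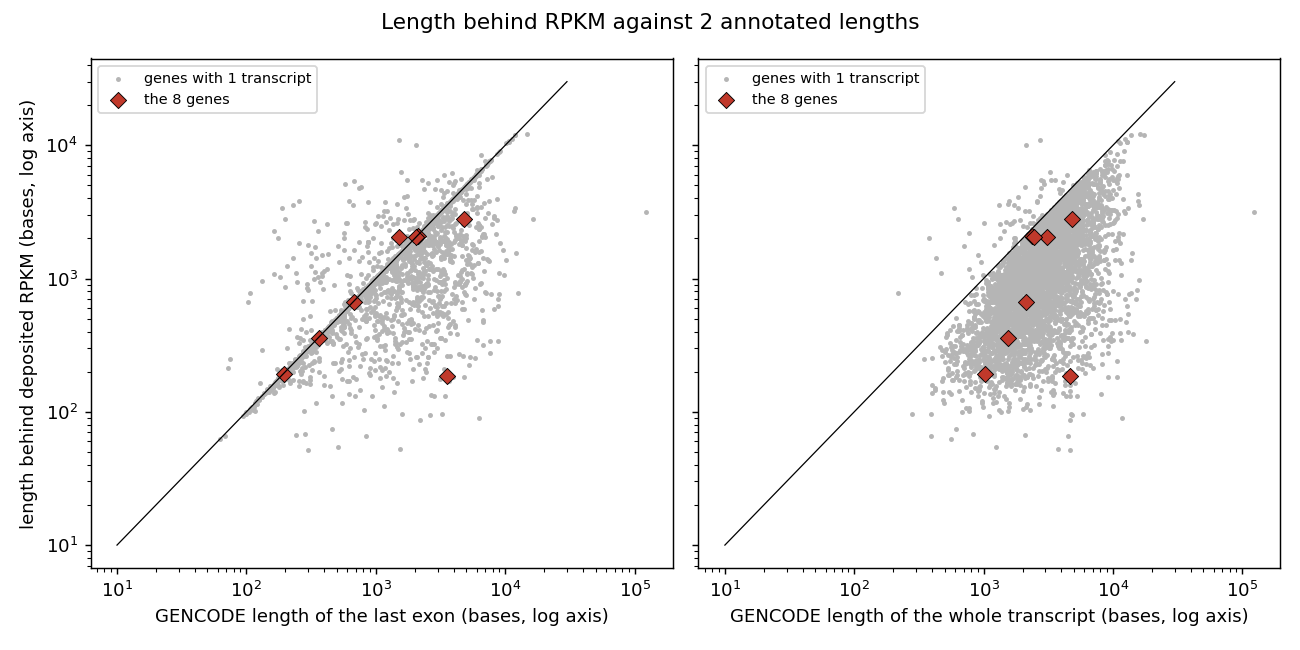
Length behind the deposited RPKM (y, bases, log axis) against the GENCODE length of the last exon (left, x) and of the whole transcript (right, x), both log axes, with 1 grey point per gene with 1 transcript, diamonds for the 8 genes (the transcript whose last exon is nearest in length) and a line of equality. On the left 74.5% of the genes with more than 1 exon are within 5% of the line, while on the right 1.38% are. Off the line on the left are the diamonds of Wdr54 (3537 and 186 bases), Foxq1 (4843 and 2804) and Ido2 (1499 and 2060).

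No other GENCODE gene overlapped the last exons of Spsb1, Gpr63, Ghrhr, Cpe, Ido2 or Butr1. The Foxq1 exon overlaps A530084C06Rik on the opposite strand, over up to 3200 bases. No read count was listed under the name A530084C06Rik. The long last exon of Wdr54 overlaps Rtkn on the opposite strand over up to 694 bases. The sources used here do not state the use of strand, so reads of such a pair cannot be told apart. Rtkn itself had 0 whole-blastocyst reads and 7 ICM reads. Only GENCODE last exons were searched for overlaps. Those of Ido2 and Wdr54 did not match the lengths behind RPKM, so overlaps of the bases used are unknown for these genes.

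Counting alone bounded the ratio of ICM to whole-blastocyst RPKM from below. At the ICM level, Spsb1 would have had 725 reads in the whole blastocyst and Wdr54 193, and at 10-fold less they would have had 72.5 and 19.3, where 0 were found. The exact 95% lower limit of the ratio was 196 for Spsb1, 160.3 for Gpr63, 157 for Ghrhr, 154 for Cpe, 124 for Foxq1, 121 for Ido2, 59.3 for Butr1 and 51.9 for Wdr54. All 8 limits were above 10-fold, as were those of 3.12% of the genes tested, which the choice of the 8 again fixed. With 3 reads put in place of the 0, as a floor, the ratio would be 242 for Spsb1, 198 for Gpr63, 194 for Ghrhr and 189.5 for Cpe. It would be 154 for Foxq1, 149 for Ido2, 73.6 for Butr1 and 64.5 for Wdr54. These floor values are larger than the exact 95% limits. A whole blastocyst contains its own ICM, and whether dilution by trophectoderm RNA could give such ratios was not tested. The limits follow the ICM reads and not the levels, which is why Ghrhr, with the highest RPKM, stands below Spsb1 and Gpr63. For the same reason the whole-blastocyst level was bounded less closely for genes with a short length behind RPKM. A floor of 3 reads equals an RPKM of 0.358 for Wdr54, 0.345 for Butr1 and 0.185 for Ghrhr, compared with 0.0324 for Spsb1 and 0.0238 for Foxq1.

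These limits treat every read as an independent observation, which amplified cDNA does not grant. If each starting molecule gave 10 reads, Spsb1 would rest on 61 molecules and Wdr54 on 16, and the lower limits would span 4.58 (Wdr54) to 19.0 (Spsb1). At 50 reads per molecule Spsb1 would rest on 12 molecules with a limit of 3.30, Gpr63 would have a limit of 2.66, Ghrhr and Cpe 2.34, and Foxq1 and Ido2 1.71. Butr1 and Wdr54 would then rest on 3 molecules each, with a limit of 0.491, which does not bound the ratio above 1. The number of reads per molecule was not measured here.

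With every read counted, the limits of the 8 genes lay above the ratios of most markers of the ICM lineages, which had reads in both libraries. The choice of the 8 by their reads fixed high limits, so nothing is read from the comparison. At 10 reads per molecule the limits, 4.58 to 19.0, lay below the ratios of Gata4 and Pdgfra, for which every read was still counted. These measures are unlike, so nothing is read from that either. Of 12 epiblast and primitive endoderm markers, Gata4 alone, with 6 and 320 reads, had a ratio above the lowest limit of the 8, at 63.3 (28.8 to 174). Pdgfra had a ratio of 29.8 (26.7 to 33.3), Esrrb of 12.02 (9.76 to 14.9) and Nanog of 4.01 (2.44 to 6.88). Of the 8981 genes tested, which reached an RPKM of 1 in either library, 38 had a lower limit at or above that of Wdr54, and 7 of these 38 had at least 1 whole-blastocyst read.

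**Figure D4:**
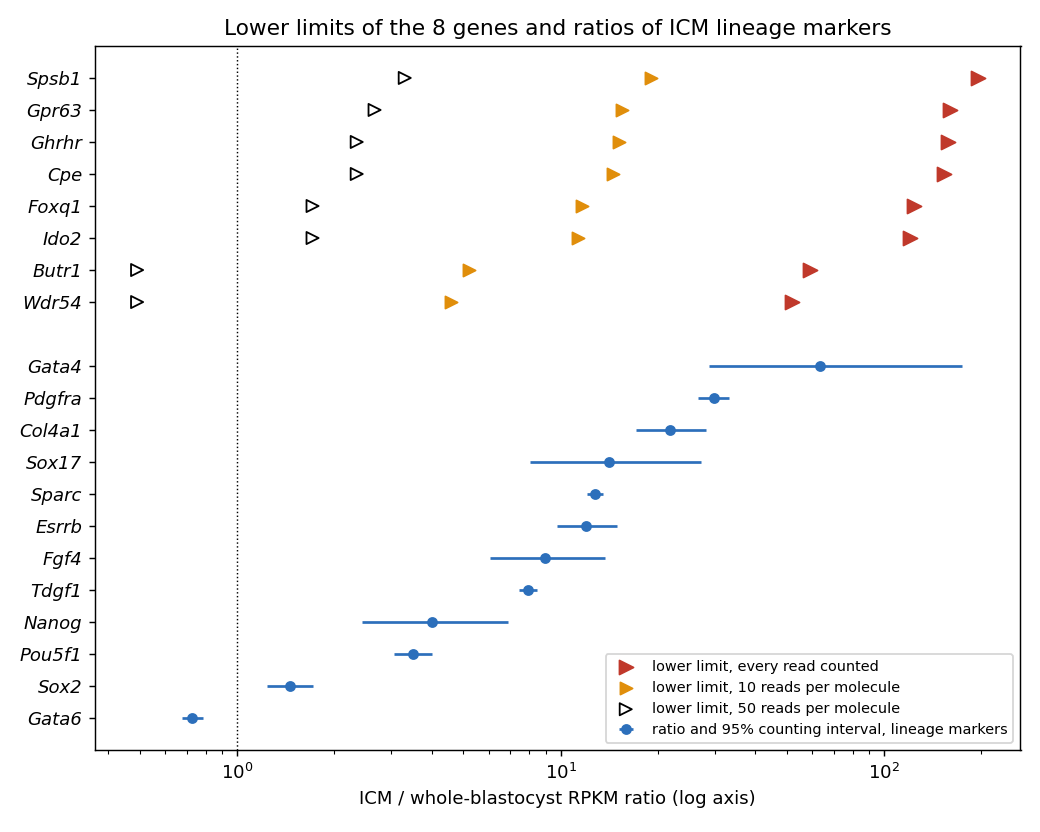
Ratio of ICM to whole-blastocyst RPKM (x, log axis). Arrowheads give the lower limits of the 8 genes with every read counted (51.9 to 196), at 10 reads per molecule (4.58 to 19.0) and at 50 (0.491 to 3.30), and circles with bars give the ratios and 95% counting intervals of 12 markers of epiblast and primitive endoderm, of which Gata4 alone lies above 51.9. The choice of the 8 by their reads fixed high limits. The circles count every read, so the limits at 10 and 50 reads per molecule are not on the same measure.

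On the scale of log2((ICM RPKM + 1)/(whole-blastocyst RPKM + 1)) the 8 genes differed by 5.20 (Ghrhr), 4.72 (Butr1), 4.59 (Wdr54), 4.31 (Cpe), 3.14 (Spsb1), 2.86 (Gpr63), 2.54 (Ido2) and 2.22 (Foxq1), with a median of 3.73. All 8 passed the filter on low values and all were at least 2-fold higher, compared with 8.96% of the 8981 genes tested, whose median was -0.84 and of which 44.0% were at least 2-fold lower. The choice of the 8 fixed both, so nothing is read from the comparison. With the deposited lengths, Ghrhr, Butr1 and Wdr54 had the 3 largest differences of all genes tested, Cpe ranked 9th and Foxq1 155th. Over the last exon of the longest GENCODE transcript the difference of Butr1 would be 1.34 and that of Wdr54 1.15, while that of Ghrhr would be 5.20. Relative to the median shift of -0.66 over the 3013 genes that reached an RPKM of 5 in each library, the differences were 2.87 to 5.86, and 16.9% of the genes tested were at least 2-fold higher and 20.5% lower. With a pseudocount of 5 the 8 differences were 0.79 to 3.03, with 6 of 8 still at least 2-fold higher.

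The families of the 8 genes were then described, leaving out the 8 themselves. Since the 8 were chosen by their reads, nothing is read from their place within a family. Counts of higher and lower genes are given as measured and relative to the shift, and over all genes tested they were 8.96% higher and 44.0% lower as measured, and 16.9% and 20.5% relative to the shift. Such counts use log2 of RPKM + 1, so a low gene with a ratio above 2-fold can go uncounted. Of all 19559 listed genes, 5529 had no read in either library. Nothing is read from the number of genes without a read in a list. In all these lists together 1 other gene, S1pr3, had 50 or more ICM reads and no whole-blastocyst read. Ghrhr was the one class B peptide hormone receptor with more than 12 reads in either library. Of 17 other receptors and receptor partners of that class, 9 had no read in either library and none reached an RPKM of 1. Adcyap1r1, the PACAP receptor gene and neighbour of Ghrhr on chromosome 6, had 0 and 1 reads, and Pth1r, the parathyroid hormone receptor gene known from later parietal endoderm, had 0 and 1.

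Along the growth hormone axis the ligand gene Ghrh, the pituitary factor gene Pou1f1 and Gh itself had no read in either library. Ghr, which encodes the growth hormone receptor, had 9 and 679 reads in whole blastocyst and ICM, with a ratio of 89.6 (46.9 to 197). Igf1r, the receptor gene for insulin-like growth factor 1, had 138 and 404 reads and a ratio of 3.47 (2.86 to 4.25), while Igf1 had 29 and 0. Gnas, which encodes the Gs subunit through which this receptor class signals, was abundant in both libraries at an RPKM of 70.2 and 32.5. Of the 4 genes of this axis that passed the filter, Ghr and Ghrl were higher in the ICM by 2-fold or more and 1 was lower, compared with 3 higher and 0 lower relative to the shift. Ghrl rested on 0 and 8 reads. Markers of pituitary and neuroendocrine cells were nearly absent. Of 10 such markers 7 had no read in either library, Pou1f1, Gh, Prl and Tshb among them, and their summed RPKM was 0.949 and 1.39.

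The partners of Cpe in prohormone processing were low. The convertase genes Pcsk1 and Pcsk2, which cut precursors before CPE trims them, and Pam, which amidates the products, had no read in either library. The ubiquitous convertase gene Furin had 349 and 40 reads, 7.35-fold lower in the ICM (5.29 to 10.5), and Pcsk7 203 and 30, 5.70-fold lower (3.87 to 8.67). Chga, the granule protein gene chromogranin A, had 5 and 22 reads. Of the 4 genes of the list that passed the filter 1 was higher and 2 were lower, and relative to the shift 2 were higher and 0 lower. The higher one as measured was Pcsk4, a convertase gene known from germ cells, with 0 and 25 reads and a difference of 1.01. Among the other metallocarboxypeptidases, Cpd, whose enzyme does a like trimming in the trans-Golgi network, had an RPKM of 10.7 and 3.01 (3.56-fold lower, 3.25 to 3.89). Cpn1 had 2 and 17 reads, Agbl5, a tubulin deglutamylase gene, had 8.08 and 5.99, and 5 of the 12 had no read in either library. Cpe thus had the highest ICM RPKM of this list.

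Ido1, its neighbour on chromosome 8 and the better known enzyme of the same step, had 0 and 1 reads, and Tdo2, the liver enzyme of that step, had 0 and 4. Of the enzymes downstream, Afmid, the formamidase gene, had 199 and 0 reads, Kynu had 0 and 2, and Kmo, Haao and Qprt had none in either library. Ahr, which encodes the receptor that kynurenine can activate, had 105 and 1 reads. Of the 9 genes of the tryptophan list that passed the filter 1 was at least 2-fold higher and 3 lower, with a median of 0.21, and relative to the shift 4 were higher and 1 lower. The higher one as measured was Wars2, the mitochondrial tryptophanyl-tRNA synthetase gene, with 149 and 580 reads and a ratio of 4.62 (3.85 to 5.57). The transporter gene Slc7a5 had an RPKM of 4.12 and 6.93 and its partner Slc3a2 18.95 and 8.55. Liver markers were nearly absent, with 5 of 8 without a read in either library and a summed RPKM of 0.155 and 0.262.

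Foxq1 was 1 of 2 forkhead genes with a level at least 2-fold higher in the ICM. The other was Foxp3, known as the factor of regulatory T cells, with 33 and 666 reads and a ratio of 24.0 (16.9 to 35.1). Of 36 other forkhead genes 14 had no read in either library and 10 passed the filter, 1 of them higher, 4 lower and 5 within 2-fold, with a median of -0.76. Relative to the shift 1 was higher and 1 lower. Foxo3 had the highest level in both libraries, at 30.03 and 29.7. Foxj3 had 27.1 and 4.44 (6.10-fold lower, 5.54 to 6.73), while Foxn2 had 17.98 and 13.98. The primitive endoderm gene Foxa2 had no read in either library, and Foxf2, the neighbour of Foxq1 on chromosome 13, had 0 and 2. Blood and immune markers were no higher in the ICM, with a summed RPKM of 2.88 and 0.451 over 7 listed genes.

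Among the other SPSB genes, Spsb4 had 626 and 31 reads, 17.0-fold lower in the ICM (11.9 to 25.3), Spsb2 had 35 and 0, and Spsb3 13 and 9, with an interval of its ratio (0.310 to 2.08) that spans 1. The ligase subunits that an SPSB protein binds were read in both libraries. Cul5 had an RPKM of 12.6 and 14.1 (ratio 1.12, 0.997 to 1.25), the elongin genes Tceb1 and Tceb2 160.6 and 74.8 and 16.9 and 3.31, and the RING subunit gene Rnf7 53.2 and 7.28. Pawr, which encodes the substrate PAR-4, had 42.6 and 9.96, and Nos2, the gene of inducible nitric oxide synthase, had no read in either library. Of the 8 genes of the list that passed the filter none was higher and 7 were lower, with a median of -1.85, and relative to the shift 0 were higher and 5 lower.

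The nearest relative of Gpr63, Gpr45, had no read in either library. GPR63 has been reported to respond to sphingosine 1-phosphate in transfected cells, so receptors of lysophospholipids were set beside it. S1pr3 had 0 and 130 reads, with a lower limit of 41.2, although its RPKM of 0.825 did not pass the filter. S1pr5 went the other way with 856 and 13 reads (55.5-fold lower, 32.3 to 105), as did S1pr2 with 160 and 5. S1pr1 had 1.42 and 1.20, and Lpar1 12.1 and 4.24. The kinase gene Sphk2, which makes sphingosine 1-phosphate, had 27.02 and 9.80. Of 7 genes of this list that passed the filter none was higher and 4 were lower, with a median of -1.17, and relative to the shift 0 were higher and 1 lower.

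Butr1 and Wdr54 had the fewest reads and the shortest lengths behind RPKM. Of 16 other butyrophilins and related immunoglobulin family genes, 1 passed the filter, the T cell inhibitor gene Vtcn1 with 85 and 0 reads. Btnl1 had 1 and 16 reads, Btnl6 0 and 12, Btnl5 0 and 10, and Cd276 0 and 15. The sources used here do not state how reads shared by near-identical family members were assigned, so the counts of Butr1 and its relatives are uncertain. Of 56 listed WD repeat genes 39 passed the filter, with 2 higher, Wdr44 and Wdr67, and 16 lower, and a median of -0.64, and relative to the shift 5 were higher and 7 lower. Wdr55 had the highest ICM level of the list at 63.0, from 62.6 in the whole blastocyst, followed by Wdr46 with 29.98 from 27.8. Wdr54 came next at 23.1 over its 186 bases, and no other gene of the list with a whole-blastocyst count of 0 had more than 4 ICM reads. WDR54 has been studied in human cells with the EGF receptor pathway. On the log2 scale none of 9 genes of that list was at least 2-fold higher and 6 were lower, with a median of -1.81. Relative to the shift 1 was higher and 5 lower. Erbb2 had 435 and 7 reads, Erbb3 156 and 0 and the ligand gene Hbegf 225 and 0. The adaptor gene Shc1 had an RPKM of 3.81 and 8.06 (ratio 2.12, 1.83 to 2.45), a difference of 0.914 on the log2 scale.

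**Figure D5:**
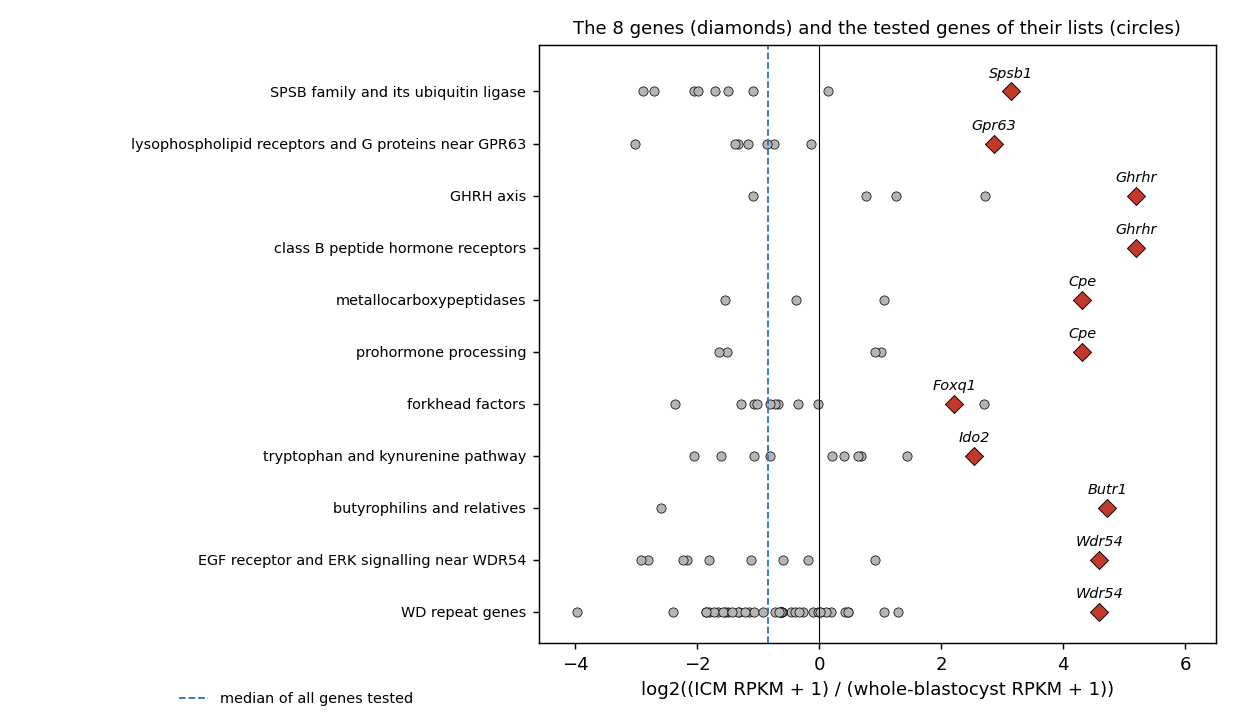
Difference on the scale log2((ICM RPKM + 1)/(whole-blastocyst RPKM + 1)) (x) of each of the 8 genes (diamonds) and of the genes of its lists that reached an RPKM of 1 in either library (circles), by list (y). The dashed line is the median of all genes tested, -0.84, and the diamonds at 2.22 to 5.20 lie, each within its own list, to the right of every circle, except that Foxp3 lies to the right of Foxq1. The 8 genes were chosen by this contrast, so nothing is read from their place.

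The genes next to the 8 on the chromosomes were described as well. Spsb1 and Gpr63 lie on chromosome 4, Ghrhr and Wdr54 on chromosome 6, Cpe and Ido2 on chromosome 8, Butr1 on chromosome 11 and Foxq1 on chromosome 13. Of the 16 nearest protein-coding genes in RefSeq, 1 on each side, 15 were in the table. None of these had 50 or more ICM reads without a whole-blastocyst read. Of all listed genes 0.639% did, so nothing is read from that. Of the 15, 8 had at most 10 reads in each library. The share over all genes was not computed, so nothing is read from that count. As measured, 1 was higher by 2-fold or more in the ICM and 4 were lower (Slc25a33, Ndufaf4, Tll1 and Sc4mol). No neighbour besides these passed the filter on low values. The shares over all genes tested, 8.96% higher and 44.0% lower, cover only genes that passed it and are no measure for all 15. The higher neighbour was the zinc finger gene Zfp39 beside Butr1, with 64 and 772 reads. On either side of Cpe, the sterol oxidase gene Sc4mol (current symbol Msmo1) had 1111 and 154 reads and Tll1 had 84 and 0.

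The other genes without a whole-blastocyst read that had the most ICM reads were named for likeness, with 2 libraries as the only points. These 10 were Flrt3 (2189 reads), Bmp4 (608), Zfp287 (363), Zfp382 (359), Nr0b1 (337), Camk1d (310), C3ar1 (303), Chrm1 (284), Dfna5 (272) and Glrp1 (266). Bmp4, a signalling ligand gene, and Nr0b1, an orphan nuclear receptor gene known from embryonic stem cells, had ICM RPKM values of 13.5 and 14.99, between those of Cpe and Spsb1. Chrm1, a muscarinic receptor gene, had 1.30 and Camk1d, a kinase gene, 1.45, because their lengths behind RPKM were 5740 and 5644 bases.

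Among markers of other cells, those of fibroblasts were higher in the ICM library. Their summed RPKM over 7 genes was 0.560 in whole blastocysts compared with 29.2 in the ICM. That sum came almost wholly from Vim (7 and 289 reads, RPKM 0.441 and 21.6) and Thy1 (6 and 351 reads, RPKM 0.107 and 7.46). The defining collagen genes Col1a1 and Col1a2 had no read and 0 and 1 reads. Acta2 had 0 and 2 reads, Pdgfrb 1 and 0, and Dcn none in either library. The part of fibroblasts in the reads of the 8 genes was not tested.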

How the data were processed

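RNA of whole blastocysts and of isolated ICMs was amplified with the NuGEN Ovation system and made into SOLiD fragment libraries, per the labels' protocols. For each gene and library the authors deposited a raw read count and the RPKM made from it. The submitters' processing notes name the build mm9. The sources used here do not state the aligner, the annotation, the use of strand or how multiply mapping reads were handled. The total behind the deposited RPKM of the ICM library was 0.842 of that of the whole blastocyst, and the listed reads gave a ratio of 0.445.

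Differences were computed as log2 of RPKM + 1 over genes that reached an RPKM of 1 in either library, so changes of low genes are understated. Ratios have exact conditional (Clopper-Pearson) 95% intervals, and a count of 0 was also bounded with a floor of 3 reads. No p-value was computed. The lengths behind RPKM were derived from reads per RPKM and scaled by the most frequent value per base of GENCODE's last exons, less 1 base. GENCODE M21 and RefSeq (GRCm38) served for names, lengths, neighbours and promoters. The only coordinates given, those of the promoter windows shown, are in that build and not in mm9. Windows on a chromosome that is not analysed here were left out of the promoter shares. The members and gene lists were chosen with earlier results of these data known. Named were the 8 genes, the 10 others with the most ICM reads and no whole-blastocyst read (unnamed models, small RNAs and chemosensory receptors passed over), the neighbours, lineage genes, and list genes with the highest levels. Further list genes were picked with their values in view. The intervals were tested on simulated Poisson counts. Python 3.11.15, pandas 2.3.3, NumPy 2.4.6, SciPy 1.17.1 and Matplotlib 3.10.9 were used.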

Additional observations from a re-analysis of the deposited data

How the results depend on the processing

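The difference of all 8 genes was 2-fold or more with pseudocounts of 0.1 and 0.5, relative to the shift, as TPM, after quantile normalization, without a filter and over the GENCODE last exons, and that of 6 with a pseudocount of 5. Over the GENCODE last exons, a setting added after seeing the data, the differences of Butr1 and Wdr54 were 1.34 and 1.15 in place of 4.72 and 4.59. The lower limit reached 10-fold for all 8 genes at the floor of 3 reads, with a one-sided limit, with the ratio of the listed reads (98.2 to 371) and with the shift (81.8 to 309), for 6 genes at 10 reads per molecule and for 0 at 50 reads per molecule, by construction of fewer observations. The 125 genes with 50 or more ICM reads and no whole-blastocyst read became 242 at a minimum of 20 reads, 50 at a minimum of 100 and 193 with up to 3 whole-blastocyst reads allowed. The 1 library per kind and the unknown number of reads per molecule limit all values.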

Other observations

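Some genes had lower limits within the range of the 8 although the whole blastocyst held reads of them. The 7 genes with at least 1 whole-blastocyst read and a lower limit at or above that of Wdr54, chosen after their values were seen, were Sh2d2a, Lrrc3, Prss23, Pet2, 1200002N14Rik, Npas3 and Ckap4. Sh2d2a, a T cell adaptor gene, had 1 and 585 reads and a lower limit of 124. Prss23, a secreted protease gene, had 1 and 441 reads and a limit of 93.5, Pet2 had 1 and 328 (69.4), and Npas3, a neuronal transcription factor gene, had 1 and 313 (66.2). Lrrc3 (11 and 1896 reads, limit 114), 1200002N14Rik (14 and 1357, limit 68.3) and Ckap4 (36 and 2674, limit 63.5) rested on more whole-blastocyst reads.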
